A study of Mus musculus with 9 samples.

Results

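The renin-angiotensin mRNAs described here are the 8 genes Agt, Ren1, Ace, Enpep, Agtr1a, Agtr2, Mas1 and Atp6ap2, chosen by name, out of 22092 genes measured. They were read in RNA bound to astrocyte ribosomes of Aldh1l1:L10a-eGFP mice of the line Tg(Aldh1l1-eGFP/Rpl10a) JD130Htz (JD130 in the labels), at the age of 2 months, in which a bacterial artificial chromosome expresses the ribosomal protein L10a fused to eGFP under the Aldh1l1 promoter. In translating ribosome affinity purification (TRAP), an anti-GFP antibody pulls down these ribosomes with the mRNAs they carry. Whole astrocyte TRAP had 3 libraries, each from 1 brain whose choroid plexus had been removed, and endfeet TRAP had 6 libraries, each from purified brain vessels pooled from 8 mice. Whether choroid plexus was also removed before the vessels were purified is not stated. Endfeet are the astrocyte processes that cover brain vessels and stay attached to them during purification. All animals of both groups carried the transgene, no library without it was analysed here, and the labels give no treatment. The comparison asks which of these mRNAs were more or less abundant on ribosomes at the vessel than on ribosomes of whole astrocytes.

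In the renin-angiotensin system, renin cuts angiotensinogen, the product of Agt, to angiotensin I, and angiotensin-converting enzyme (Ace) turns that peptide into angiotensin II. Aminopeptidase A (Enpep) shortens angiotensin II to angiotensin III, whereas other peptidases form angiotensin (1-7), the ligand of the Mas receptor (Mas1). Angiotensin II acts on type 1 receptors (Agtr1a and Agtr1b in mice) and type 2 receptors (Agtr2), and the prorenin receptor (Atp6ap2) binds renin and its precursor and is also an accessory subunit of the vacuolar proton pump. In the brain, astrocytes are known as the main source of angiotensinogen, while Ace is found on the vascular endothelium and on the choroid plexus epithelium.

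Whole astrocyte libraries were deeper, with 35984144 to 43521208 counts over genes against 2319495 to 13450588 in endfeet TRAP, where library 6 was the shallowest. A count of 3, used as the limit of detection, corresponded to 0.0689 to 0.0834 CPM (counts per 1000000 counts of a library) in the former group and 0.223 to 1.29 CPM in the latter, which covers counting error only. Markers of vessel cells came with the endfeet libraries. The summed CPM of 10 endothelial markers was 5.01 to 6.74 in whole astrocyte libraries and 2629 to 5802 in endfeet libraries, that of 9 pericyte markers 35.4 to 42.7 and 2360 to 7795, and all 19 of these genes passed the test as higher (edgeR, adjusted p at most 0.05). Ly6c1 was the only endothelial marker at 0 in all 3 whole astrocyte libraries, and no pericyte, choroid plexus or astrocyte marker was at 0 throughout a group. Of 8 choroid plexus markers 7 were higher, and their sum was 79.3, 1625 and 1330 CPM in whole astrocyte libraries 1 to 3 and 7080 to 75524 CPM in endfeet libraries. The 12 astrocyte markers summed to 24982 to 27456 CPM and 15971 to 39068 CPM, with 1 of them higher and 3 lower (Aldoc, Gjb6 and Aldh1l1, whose promoter drives the transgene). The part of these other cell types in the results below was not tested, and in such bulk libraries fewer cells or processes of a type and less RNA per cell cannot be told apart.

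Of the 8 renin-angiotensin mRNAs, 4 were higher in endfeet TRAP than in whole astrocyte TRAP, namely Agt, Ace, Enpep and Atp6ap2, and 0 were lower. Mas1 was tested and did not pass, and Agtr1a, Agtr2 and Ren1 had too few counts to be tested. Among all 14427 genes tested with edgeR (quasi-likelihood test, Benjamini-Hochberg adjustment), 34.6% passed at an adjusted p of at most 0.05, 20.7% being higher and 13.9% lower in endfeet. The log2 fold changes of the 5 genes that could be tested ranged from 1.91 to 8.14 with a median of 2.20, and the median over all genes tested was 0.10. In 3 of these 5 genes (Ace, Enpep and Atp6ap2), all 6 endfeet libraries lay above all 3 whole astrocyte libraries, an arrangement found in 18.9% of all genes tested.

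**Figure D1:**
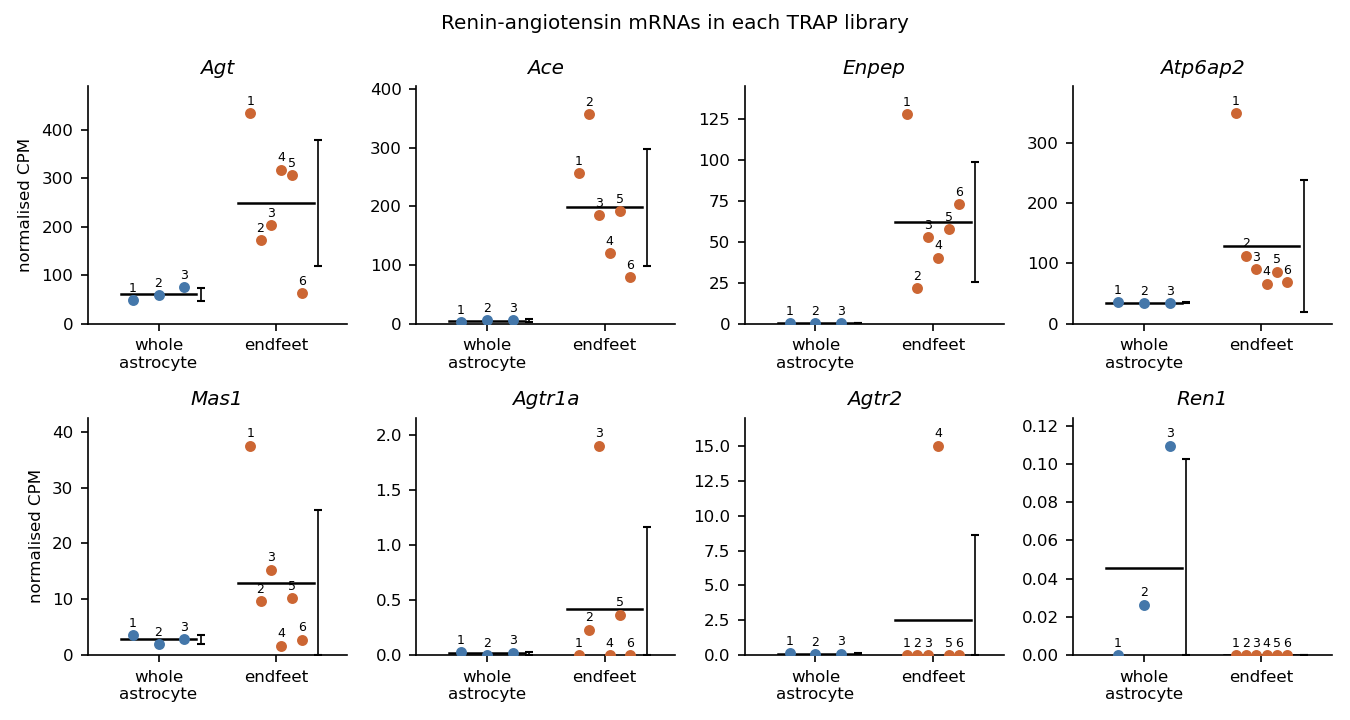
Level of each renin-angiotensin mRNA in every TRAP library, in CPM scaled with TMM factors (normalised CPM) on linear axes that start at 0 and differ between panels. Points are libraries with their replicate numbers, horizontal lines are group means, and vertical bars are 1 SD around the mean, cut off at 0 (n = 3 whole astrocyte and 6 endfeet libraries). Ace, Enpep and Atp6ap2 do not overlap between the groups, Agt overlaps through endfeet library 6 at 62.1, Agtr2 is high in endfeet library 4 alone at 15.1, and Ren1 is at 0 in all endfeet libraries.

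The sequences just upstream of the transcription start are shown for the 4 genes that were higher in endfeet TRAP. They comprise the 250 bases before each start in the RefSeq annotation of GRCm38.p6 (the mm10 build), written 5' to 3' on the strand of the gene, for Agt (chr8:124569707-124569956, minus strand), Enpep (chr3:129332750-129332999, minus strand), Atp6ap2 (chrX:12587509-12587758, plus strand) and both starts of Ace on the plus strand, the first giving the somatic enzyme (chr11:105967698-105967947) and the other inside the gene (chr11:105974939-105975188). Capitals mark the letters TATAAA of the TATA box, the letters CCAAT of the box named after them and the letters GGGCGG of the GC box, each searched on both strands. A TATA box on the opposite strand reads TTTATA in these lines. A GC box there reads CCGCCC, and the remaining motif reads ATTGG.
Agt: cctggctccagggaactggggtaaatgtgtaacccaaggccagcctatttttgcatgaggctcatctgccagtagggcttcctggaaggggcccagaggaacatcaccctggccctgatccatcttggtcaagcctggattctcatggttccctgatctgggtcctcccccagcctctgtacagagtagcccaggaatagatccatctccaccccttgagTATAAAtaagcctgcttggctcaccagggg
Ace, first start: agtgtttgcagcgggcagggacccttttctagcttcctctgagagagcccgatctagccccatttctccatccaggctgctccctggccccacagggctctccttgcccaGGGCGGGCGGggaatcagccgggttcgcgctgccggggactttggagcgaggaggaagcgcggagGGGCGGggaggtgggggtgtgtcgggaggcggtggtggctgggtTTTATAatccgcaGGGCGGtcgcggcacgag
Ace, internal start: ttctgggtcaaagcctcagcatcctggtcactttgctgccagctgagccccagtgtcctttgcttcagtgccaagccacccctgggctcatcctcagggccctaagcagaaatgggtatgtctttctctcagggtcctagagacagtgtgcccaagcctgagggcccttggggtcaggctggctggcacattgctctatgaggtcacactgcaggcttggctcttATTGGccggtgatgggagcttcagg
Enpep: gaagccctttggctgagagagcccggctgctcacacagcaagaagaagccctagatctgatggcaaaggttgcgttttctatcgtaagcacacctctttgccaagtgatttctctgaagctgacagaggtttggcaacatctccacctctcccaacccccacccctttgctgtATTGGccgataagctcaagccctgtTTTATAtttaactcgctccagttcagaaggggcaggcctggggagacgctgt
Atp6ap2: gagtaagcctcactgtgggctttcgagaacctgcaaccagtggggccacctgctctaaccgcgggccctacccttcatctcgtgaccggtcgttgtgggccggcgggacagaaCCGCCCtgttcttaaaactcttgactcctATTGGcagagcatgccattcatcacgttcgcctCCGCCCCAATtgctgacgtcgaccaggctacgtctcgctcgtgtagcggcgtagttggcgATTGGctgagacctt

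Agt had TATAAA beginning 30 bases before the start and none of the other letters. The first start of Ace had TATAAA on the opposite strand 31 bases before it and 4 GGGCGG matches, of which those at 140 and 136 bases overlap. Its internal start, in contrast, had a single CCAAT match on the opposite strand at 25 bases. In Enpep, TATAAA and CCAAT were both matched on the opposite strand, 52 and 77 bases before the start. The Atp6ap2 window held no TATAAA, 3 CCAAT matches and 2 GGGCGG matches, with the CCAAT at 70 bases overlapping the GGGCGG at 75. Over 32851 promoter windows of the same length, 12.4% held TATAAA, 33.8% CCAAT and 32.7% GGGCGG. These are matches of letters and not measured binding sites, and the 4 windows of Agt, Enpep, Atp6ap2 and the first Ace start had no single motif that all of them shared. Windows were found for 7 of the 8 genes.

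Agt, which encodes angiotensinogen, the substrate of the whole cascade, was 4.12-fold higher in endfeet TRAP. Its gene lies on chromosome 8 (124556534 to 124569706, minus strand), and its single annotated transcript has 5 exons. The mRNA measured 48.5, 58.0 and 74.9 normalised CPM in whole astrocyte libraries 1 to 3 (60.5 ± 13.4, SD, n = 3) and 62.1, 254 and 434 as the lowest, median and highest of the endfeet libraries (249 ± 130, SD, n = 6). Of the endfeet libraries, 5 lay above all whole astrocyte libraries, and library 6 lay within their range with a count of 136. The log2 fold change was 2.04 (SE 0.50, adjusted p = 0.00671 by edgeR). It passed under all 19 alternative settings, between 1.79 and 2.25, and without endfeet library 6 it was 2.25 (edgeR adjusted p = 4.0e-04).

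Since endfeet libraries also hold RNA of vessel cells, Agt was set against the astrocyte markers of the same library. Per 1000 CPM of the 12 summed astrocyte markers, Agt amounted to 1.84, 2.44 and 2.86 CPM in whole astrocyte libraries and to 2.58, 9.97 and 14.6 CPM as the lowest, median and highest of the endfeet libraries. On this scale too, 5 of 6 endfeet libraries lay above all whole astrocyte libraries, with library 6 between them. The difference was 1.83 on the log2 scale, or 3.55-fold (two-sided exact permutation test, p = 0.0238, 84 arrangements). The p rose above 0.05 when any one library other than whole astrocyte library 3 or endfeet library 6 was left out, with values up to 0.0714 by the same exact test, and the difference was 1.66 to 2.17 over all 9 omissions. Atp6ap2 per 1000 CPM of the same markers was 1.27 to 1.44 in whole astrocyte libraries and 2.15 to 8.97 in endfeet libraries, a description chosen after the values were seen.

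Ren1, the gene of renin, was hardly detected. It lies on chromosome 1 (133350510 to 133360325, plus strand). Whole astrocyte libraries held 0, 1 and 5 counts, and all 6 endfeet libraries held 0. Pooled over libraries, the whole astrocyte value of 0.0519 CPM lay just under the 0.0527 CPM that a count of 0 allows in the endfeet libraries, so a difference was not detectable at this depth. Of the other proteases that can form angiotensins, Ctsg (cathepsin G) and Klk1 (tissue kallikrein) had no count in any library. Cma1 and Mcpt4, chymases of mast cells, had 0 and 1 counts in whole astrocyte libraries and 37 and 62 in endfeet libraries, of which 27 fell in endfeet library 6 for Cma1 and all 62 in endfeet library 5 for Mcpt4.

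Ace, which forms angiotensin II, was 40.9-fold higher in endfeet TRAP. The gene covers 105967945 to 105989964 on the plus strand of chromosome 11, and its longest transcript has 25 exons. Its level was 2.38, 6.11 and 6.04 normalised CPM in whole astrocyte libraries (4.84 ± 2.13, SD, n = 3) and 78.6, 188 and 357 as the lowest, median and highest of the endfeet libraries (198 ± 99.4, SD, n = 6). The groups were far apart, the lowest endfeet library being library 6 and the lowest whole astrocyte library being library 1. The log2 fold change was 5.35 (SE 0.60, adjusted p = 2.3e-05 by edgeR), and all 19 alternatives passed with values between 4.61 and 5.84.

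The marker sums of endothelium and choroid plexus, the known sources of Ace, were higher in every endfeet library than in any whole astrocyte library. Ace amounted to 376, 951 and 1261 CPM per 1000 endothelial CPM in whole astrocyte libraries against 20.5 to 84.7 in endfeet libraries. That ratio was lower in all 6 endfeet libraries. The choroid plexus sum was lowest in whole astrocyte library 1, where Ace was also lowest. Ace per 1000 choroid plexus CPM was 30.8, 3.94 and 4.75 in whole astrocyte libraries and 2.78 to 27.3 in endfeet libraries, ranges that overlap. Within the endfeet libraries the levels did not run in parallel, since the choroid plexus sum was highest in library 1 and Ace in library 2. These ratios were formed after the values were seen and carry no test. The part of either cell type in the result was not tested.

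The annotated Ace transcripts show where along the gene the reads fell. The full-length transcript and an intermediate one begin upstream of the internal start, and a short one begins near it, at position 105975208, as the transcript of the testis enzyme is known to do. A read was counted on each transcript it overlaps, so the intermediate count less the short count reflects reads on the 1427 bases that only the former of this pair holds, 1235 of which lie before the short transcript's start, less any reads on the 196 bases that only the short one holds. That difference was 23, 67 and 84 counts in whole astrocyte libraries, or 26.1 to 30.5% of the full-length count, and 26.7 to 43.0% in endfeet libraries. The short transcript itself had 19.3 to 29.0% and 17.8 to 48.8%. The ranges of both shares overlapped between the groups. The annotation also holds an antisense transcript across Ace, Gm11651, and since use of strand in the counting is not stated, reads from the opposite strands cannot be told apart.

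Enpep, encoding aminopeptidase A, had the largest fold change of the 5 genes tested. The gene lies on chromosome 3 (129269175 to 129332720, minus strand), and its main transcript has 20 exons. It was nearly absent from whole astrocyte libraries, at 0.027, 0.344 and 0.263 normalised CPM (1, 13 and 12 counts; mean 0.211 ± 0.165, SD, n = 3). In endfeet libraries it reached 21.4, 55.2 and 128 normalised CPM as the lowest, median and highest value (62.1 ± 36.5, SD, n = 6). All 6 endfeet libraries were above all whole astrocyte libraries, with library 2 lowest and library 1 highest. The log2 fold change was 8.14 (SE 0.94, adjusted p = 2.94e-05 by edgeR). It passed under all 18 alternatives that could test the gene, from 6.21 to 8.62.

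Aminopeptidase A is known as an enzyme of brain pericytes, whose markers were higher in endfeet libraries in 9 of 9 cases. Per 1000 CPM of the pericyte sum, Enpep amounted to 0.786, 8.45 and 7.24 CPM in whole astrocyte libraries and to 3.30, 9.79 and 44.3 CPM as the lowest, median and highest in endfeet libraries. On that scale the groups overlapped, and 4 of the endfeet libraries exceeded the whole astrocyte range. Per 1000 CPM of the endothelial sum, Enpep was 4.27, 53.5 and 55.0 CPM in whole astrocyte libraries 1 to 3 and 5.07 to 39.8 CPM in endfeet libraries. All endfeet libraries lay within the whole astrocyte range on this endothelial scale, but below whole astrocyte libraries 2 and 3. On both scales the lower end of the whole astrocyte range comes from library 1, which had 1 count of Enpep. Endfeet library 1, the highest for Enpep, was the lowest for the pericyte sum. Whole astrocyte library 1 had the least Enpep, the least Ace and the lowest choroid plexus sum of its group. The part of pericytes or endothelial cells in the result was not tested.

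**Figure D2:**
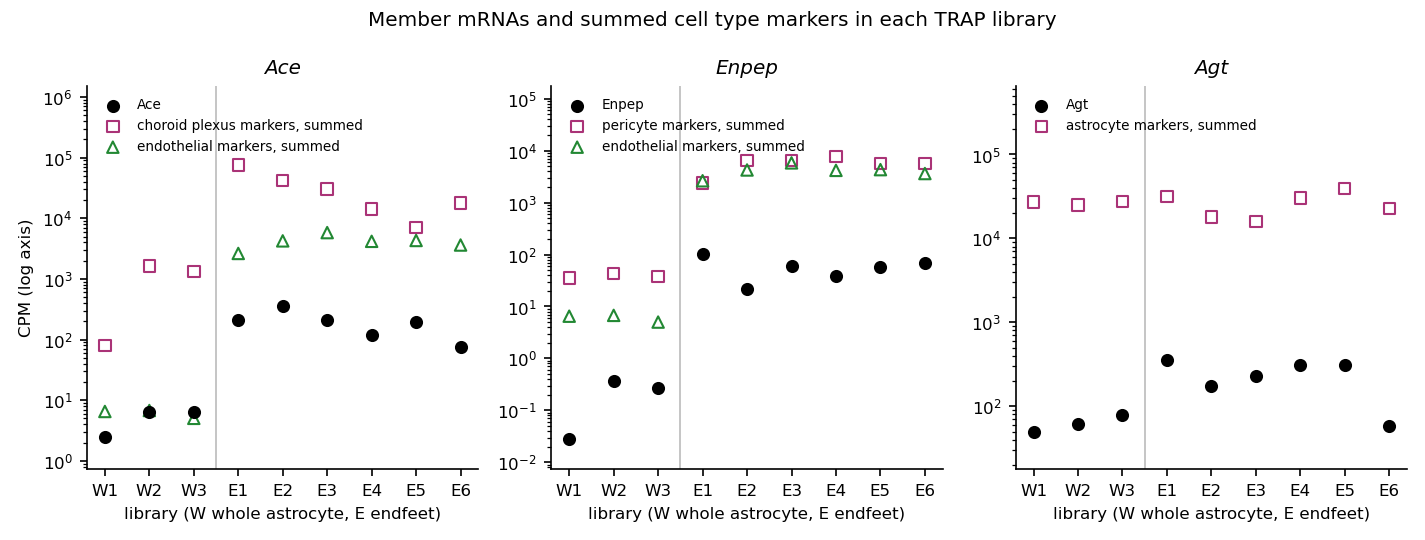
Ace, Enpep and Agt (filled points) beside summed cell type markers (open symbols) in each library, all in CPM on log axes; W1 to W3 are whole astrocyte and E1 to E6 endfeet libraries, separated by the grey line. Ace, Enpep and the vessel and choroid plexus marker sums are all higher in every endfeet library than in any whole astrocyte library but do not run in parallel among the endfeet libraries, while the astrocyte sum stays between 15971 and 39068 CPM in the endfeet libraries, where Agt is higher in 5 of 6.

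Among the receptors, Mas1 alone had enough counts for the test. Mas1 encodes the receptor of angiotensin (1-7) and lies on chromosome 17 (12841079 to 12868143, minus strand). It measured 3.54, 1.98 and 2.87 normalised CPM in whole astrocyte libraries (2.80 ± 0.78, SD, n = 3) and 1.69, 9.91 and 37.5 as the lowest, median and highest of the endfeet libraries (12.8 ± 13.1, SD, n = 6). The groups overlapped, 4 endfeet libraries lying over the whole astrocyte range and 1, library 4, under it. The log2 fold change of 2.20 (SE 0.99) did not pass, with an adjusted p = 0.104 by edgeR. It passed with DESeq2 (adjusted p = 0.0233), limma voom (adjusted p = 0.037) and a replicate block (edgeR adjusted p = 0.0439). The log2 fold change was 1.51 without endfeet library 1, the highest (edgeR adjusted p = 0.172), and 0.68 when only endfeet libraries 4 to 6 were compared (edgeR adjusted p = 0.538).

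Counts of annotated Mas1 transcripts stood in different proportions in the groups. A short annotated transcript ends inside the last exon of the full-length one, which has 1125 bases on the 3' side of that end, and 641 of its 972 coding bases are not shared with the short one. Counts of the short transcript were 31, 13 and 31 beside 131, 75 and 131 for the full-length one in whole astrocyte libraries, that is 17.3 to 23.7%. In endfeet libraries 1 to 6 they were 0, 6, 1, 0, 9 and 0 beside 200, 84, 233, 21, 138 and 6, or 0 to 7.14%. The shares did not overlap between the groups, and pooled they were 22.3% of 337 counts and 2.35% of 682 counts. Endfeet libraries 4 and 6 rest on only 21 and 6 counts of the full-length transcript. How often such shares separate the groups over all genes was not computed. Another transcript, which reaches nearly to the 3' end of the gene, held 336 and 677 of these counts. Nearly all Mas1 reads of endfeet libraries were thus counted on that transcript and not on the short one. Their exact place within its exons was not computed. This comparison was chosen after the counts were seen and carries no test. The antisense gene Airn spans the last exon of Mas1 and the whole of the short transcript. Reads from Airn could be part of either count and cannot be told apart from reads of Mas1 where strand is not stated.

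**Figure D3:**
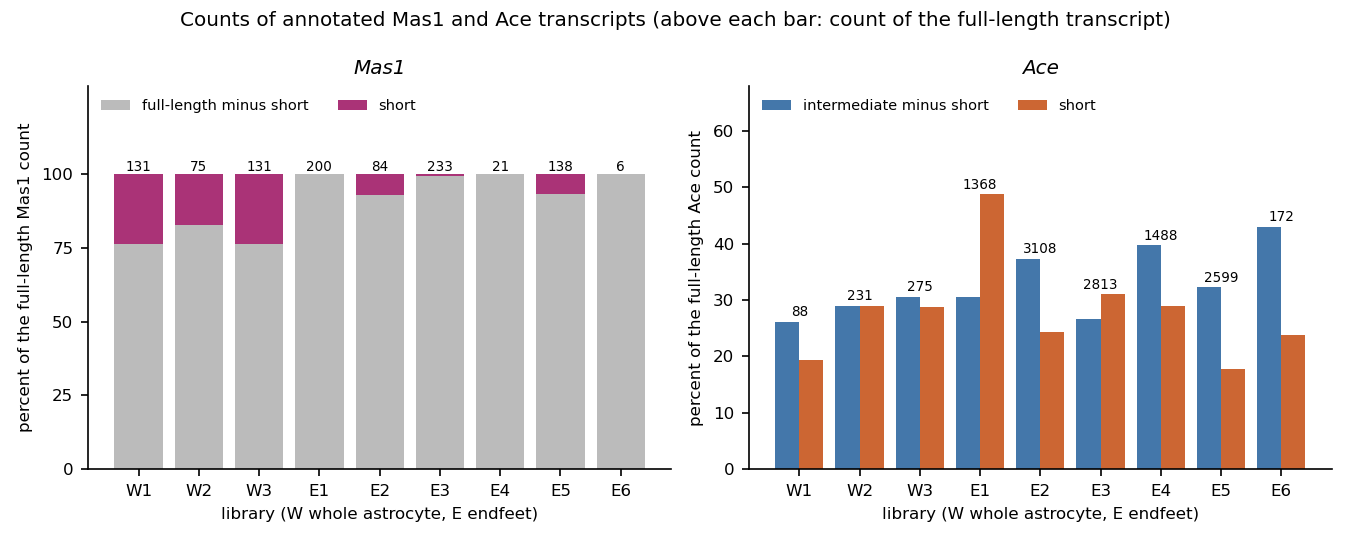
Counts of annotated transcripts as percent of the longest transcript of the gene in each library (W whole astrocyte, E endfeet; numbers above the bars are the full-length counts). On the left, the short Mas1 transcript (purple) is 17.3 to 23.7% in whole astrocyte and 0 to 7.14% in endfeet libraries, the rest of the full-length count being grey. On the right are the intermediate less the short Ace count (blue) and the short Ace count (orange), whose ranges overlap between the groups.

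The angiotensin II receptors were sparse in both groups. Agtr1a, the type 1a receptor (chromosome 13, 30336441 to 30382867, plus strand), had 1, 0 and 1 counts in whole astrocyte libraries and 0, 2, 29, 0, 5 and 0 in endfeet libraries 1 to 6. Its near-identical paralog Agtr1b had 7 counts in whole astrocyte libraries, all in library 2, and 34 in endfeet libraries, 23 of them in library 3. Library 3 was thus the highest endfeet library for both genes. Reads that align to more than 1 place had been removed, so the counts of this pair are uncertain. Agtr2, the type 2 receptor (chromosome X, 21484544 to 21489164, plus strand), had 5, 2 and 4 counts in whole astrocyte libraries and 187 counts in endfeet library 4 alone, with 0 in the other 5. Without the filter on low counts neither receptor passed (edgeR adjusted p = 0.111 for Agtr1a and 0.187 for Agtr2). Mrgprd, another receptor of the pathway, had no count in any library.

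Atp6ap2, the prorenin receptor, was 3.75-fold higher in endfeet TRAP. It lies on the X chromosome (12587801 to 12617049, plus strand) and has 9 exons. Whole astrocyte libraries were nearly equal at 35.3, 34.3 and 33.2 normalised CPM (34.3 ± 1.03, SD, n = 3), and the lowest, median and highest endfeet libraries were at 66.0, 88.1 and 348 (129 ± 109, SD, n = 6). All 6 endfeet libraries were above all whole astrocyte libraries, and library 1 stood far above the other 5, which reached 112 at most. The log2 fold change was 1.91 (SE 0.55, adjusted p = 0.0165 by edgeR). Endfeet library 1 also had the highest choroid plexus sum (75524 CPM), whose part was not tested, and without this library the log2 fold change was 1.29 (edgeR adjusted p = 0.00425). The call was lost when any one whole astrocyte library was left out (edgeR adjusted p 0.0585 to 0.0691) and with a covariate that set endfeet libraries 1 to 3, whose library numbers form a series of unstated meaning, apart from the others (log2 fold change 1.11, adjusted p = 0.0948), and with endfeet libraries 4 to 6 alone the log2 fold change was 0.97 (edgeR adjusted p = 0.0215).

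The other subunits of the vacuolar proton pump did not follow Atp6ap2 as a group. Of 17 subunit mRNAs tested, 3 were higher, 10 lower and 4 did not pass, beside 20.7% higher and 13.9% lower among all genes tested. Their median log2 fold change was -1.20, and that over all genes was 0.10. Those higher were Atp6ap1 (2.11, SE 0.27), the other accessory subunit, and Atp6v0a1 (1.24, SE 0.38) and Atp6v0b (1.19, SE 0.42), both of the membrane sector. In the same sector Atp6v0d1 (-1.20, SE 0.43) and Atp6v0e2 (-1.42, SE 0.35) were lower, and Atp6v0a2, Atp6v0c and Atp6v0e did not pass. Atp6ap1 rose from 88.4 to 99.4 normalised CPM in whole astrocyte libraries to 318 to 570 in endfeet libraries, and its adjusted p was 6.8e-05 by edgeR. Of the cytosolic V1 sector, 8 of 9 mRNAs were lower and none was higher, and Atp6v1f (log2 fold change -1.86) did not pass (edgeR adjusted p = 0.0536). Atp6v1g1 was furthest down (log2 fold change -2.80, SE 0.64), followed by Atp6v1e1, at 228 to 262 normalised CPM in whole astrocyte and 50.6 to 97.0 in endfeet libraries. Over all 17 subunits, 6 were lower when any one whole astrocyte library or endfeet library 2 was left out, and Atp6ap1 was the 1 still higher when any one whole astrocyte library was left out. In all 9 mRNAs of the V1 sector every endfeet library lay below every whole astrocyte library, an arrangement found in 23.8% of all genes tested. Neuronal markers, 7 in the list, summed to 3514 to 4029 CPM in whole astrocyte libraries and 893 to 1686 CPM in endfeet libraries, with 3 of them lower, and their part in these differences was not tested.

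Of the 20 other genes of the pathway, 14 could be tested, and 8 were higher, 1 lower and 5 did not pass, beside 20.7% higher and 13.9% lower among all genes tested. The median log2 fold change of the 14 was 1.84, against 0.10 over all genes. Anpep (aminopeptidase N, which shortens angiotensin III) was 34.4-fold higher, Prcp (a carboxypeptidase that forms angiotensin (1-7)) 17.8-fold and Ctsa (cathepsin A) 12.2-fold. Lnpep, the aminopeptidase that binds angiotensin IV, was 4.60-fold higher. Cpa3, the carboxypeptidase of mast cells, was called higher from 4 counts in whole astrocyte libraries and 75 in endfeet libraries, 2 of which had 0 (edgeR adjusted p = 0.0412), and it passed in 8 of 17 alternatives.

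The receptor-associated proteins were also higher. Agtrap, which promotes uptake of the type 1 receptor into the cell, was 3.33-fold higher (edgeR adjusted p = 0.0088), and Mtus1, which binds the type 2 receptor, was 2.13-fold higher (edgeR adjusted p = 0.00773). Both had all 6 endfeet libraries above all whole astrocyte libraries. The call of Agtrap was lost without whole astrocyte library 1 or 2 (edgeR adjusted p up to 0.0598) and that of Mtus1 without whole astrocyte library 3 (edgeR adjusted p = 0.0521). Nln (neurolysin), which cuts angiotensins and neurotensin, was the only one lower. It measured 73.8 to 86.8 normalised CPM in whole astrocyte libraries and 6.21 to 44.1 in endfeet libraries. Its log2 fold change was -1.98 (SE 0.58; edgeR adjusted p = 0.018), and the call was lost when any one whole astrocyte library was left out (edgeR adjusted p 0.0532 to 0.0751). The peptidases Mme (1.95, SE 1.21), Thop1 (0.95, SE 0.87), Dpp3 (0.29, SE 0.49), Prep (0.15, SE 0.56) and Rnpep (-0.38, SE 0.47) did not pass, the values being log2 fold changes.

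**Figure D4:**
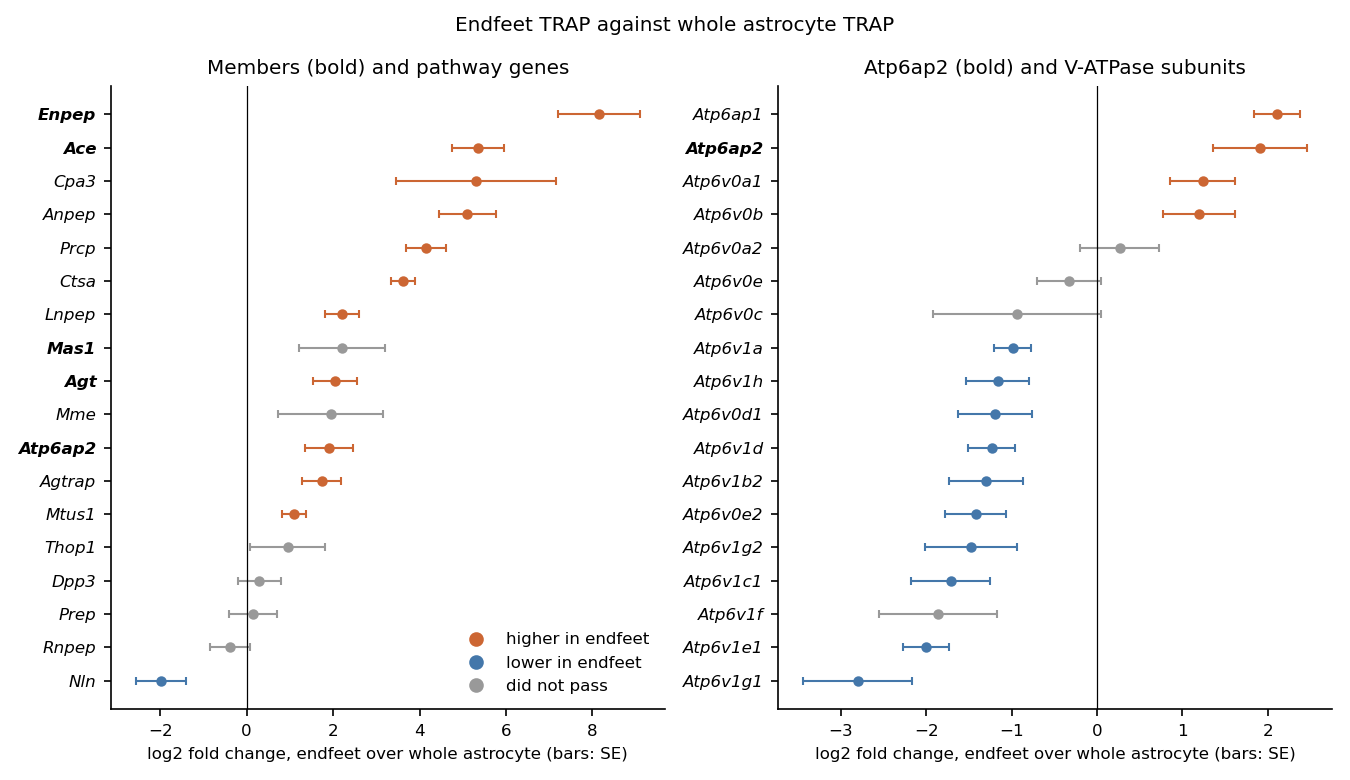
log2 fold change of endfeet TRAP over whole astrocyte TRAP from edgeR with bars of 1 SE, on the left for the renin-angiotensin members (bold) and other pathway genes and on the right for Atp6ap2 (bold) and the subunits of the vacuolar proton pump. Orange marks genes higher, blue genes lower and grey genes that did not pass at an adjusted p of 0.05; on the right 3 other subunits are higher beside Atp6ap2, and 8 of 9 mRNAs of the V1 sector are lower.

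Per transcript length, in counts per kilobase scaled to the same sum in each library (TPM), Agt stood highest of the 8 in both groups. In whole astrocyte libraries the mean levels were 90.3 TPM for Agt (± 19.5, SD, n = 3), 41.7 for Atp6ap2 (± 1.51), 3.30 for Mas1 (± 0.94), 2.78 for Ace (± 1.21) and 0.142 for Enpep (± 0.111). Mas1 and Ace overlapped in their ranges there, whereas Agt, Atp6ap2, the pair of Mas1 and Ace, and Enpep did not overlap with each other. Ren1, Agtr2 and Agtr1a had means of 0.0802, 0.0793 and 0.021 TPM. Ren1 overlapped in range with Enpep, Agtr2 and Agtr1a, while Agtr2 and Agtr1a did not overlap with each other. The whole astrocyte values of Ren1, Agtr2 and Agtr1a rest on at most 5 counts per library, so the order among these genes is uncertain. In endfeet libraries the order was Agt (405 ± 180, SD, n = 6), Atp6ap2 (161 ± 98.1), Ace (127 ± 65.4), Enpep (44.5 ± 18.9) and Mas1 (15.5 ± 12.8), and each of these overlapped with the next in range. Agtr2 (2.57 ± 6.30) and Agtr1a (0.655) followed, with counts in only 1 and 3 of the 6 endfeet libraries.

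Within single libraries the order was firmer than these ranges show. Agt was above Atp6ap2 and above Ace in 9 of 9 libraries, and Ace was above Enpep in 8 of 9, the exception being endfeet library 6. Ace was below Mas1 in whole astrocyte library 1 and above it in the other 8. Enpep was below Mas1 in all 3 whole astrocyte libraries and above it in all 6 endfeet libraries. The level of Agt per that of Ace was 24.6 to 52.9 in whole astrocyte libraries and 1.25 to 6.87 in endfeet libraries, a smaller ratio in all 6 of the latter. By mean TPM among the 22092 genes, Agt ranked 2297 in whole astrocyte and 240 in endfeet libraries, and Ace ranked 11647 and 1385.

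The genes whose pattern over the 9 libraries was most like that of each renin-angiotensin mRNA were found by the root mean square difference between centred profiles of log2(normalised CPM + 1). Those of Agt were Glmp (0.21), Snx14 (0.26) and Gpr108 (0.27), and those of Atp6ap2 were Clcc1 (0.16), Abi3bp (0.23) and Atp9a (0.26). For Ace they were Igf2 (0.25), Aoc3 (0.34) and Col18a1 (0.38). Enpep was most like Gimap6 (0.37), Cd74 (0.47) and Apcdd1 (0.48), and Mas1 most like Nsun5 (0.32), Pkdcc (0.34) and Arhgap27 (0.34). These lists describe likeness over 9 libraries in which depth and the mixture of cells also differed between the groups.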

How the data were processed

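RNA bound to GFP-tagged ribosomes was sequenced by the authors in 3 whole astrocyte TRAP and 6 endfeet TRAP libraries after amplification with the Ovation kit. Per the study's methods and processing notes, reads were made with bcl2fastq 1.8.4, aligned to mm10 with Bowtie, filtered to keep reads with a single alignment, and counted with HTSeq 0.5.3 on Ensembl transcripts. The deposited values are raw counts per transcript, with no normalization and no pooling of libraries. A read was counted on every transcript it overlaps. The authors' pipeline may have used strand or not, which is not given in the sources used here.

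Of 75466 transcripts, 73164 were found in GENCODE M21 (same build), in 22092 genes. The transcript with most CPM over all libraries stood for its gene. Endfeet and whole astrocyte TRAP were compared with edgeR 4.0.16 in R 4.3.3 (TMM, filterByExpr, glmQLFit, glmQLFTest; Benjamini-Hochberg over 14427 genes; threshold 0.05), with no covariate. Both groups shared the estimate of the spread between libraries in this test. Estimated within each group, that spread (edgeR common dispersion) was 0.0140 in whole astrocyte and 0.705 in endfeet libraries. The adjusted p-values and errors depend on this sharing. Standard errors (SE) are the size of the log2 fold change over the root of the test's F. Normalised CPM uses TMM library sizes, while marker sums and ratios use plain CPM. The labels do not say that libraries came from separate animals beyond the pools, so p-values measure the spread between these libraries. The test was also run on counts drawn with known changes. Those counts had the same spread in both groups, unlike these libraries, so that run does not show how the test behaves here. Sequences came from a RefSeq table of GRCm38.p6.

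The genes, lists and markers were chosen with earlier results of these data known. Named are the 8 members, genes of the pathway, proton pump and marker lists, and for each member tested the 3 genes most alike in pattern. Some list genes are counted but not reported here by name. Alternatives were DESeq2 1.42.0, its size factors in edgeR, no filter on low counts, at least 10 counts in every library, a replicate block, the series of library numbers as a covariate (endfeet libraries 1 to 3 against all others; its meaning is not stated), endfeet libraries 4 to 6 only, limma 3.58.1 voom with group weights, counts summed over transcripts, libraries thinned to the smallest, a pseudocount of 0.1 in place of 1 CPM and medians for marker scores, and each library left out in turn. Python 3.11.15 (pandas 2.3.3, numpy 2.4.6, matplotlib 3.10.9) was used for tables and figures.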

Additional observations from a re-analysis of the deposited data

Results flagged for a closer look

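In each of 18 measures, the 6 endfeet libraries were searched for a highest or lowest library far from the rest (Dixon's criterion at the 95% level), and 5 were found. Chance gives about 1 in 20 groups where values are normally distributed and the groups independent. The measures share libraries, and Agtr1a and Agtr2 were at 0 in several of them. The number found can therefore not be compared with that rate. Agtr2 was highest in endfeet library 4 at 15.1 normalised CPM, with 0 in the other 5 endfeet libraries. Agtr1a was highest in endfeet library 3 at 1.91 normalised CPM, with 0.369 or less in the others. Atp6ap2 was highest in endfeet library 1 at 348 normalised CPM, against 112 in the next library. Agt relative to the astrocyte markers was lowest in endfeet library 6, at -8.60 on the log2 scale. The score of ependymal markers, the mean of log2(CPM + 1) over 4 genes, was also lowest in endfeet library 6, at 2.90. Endfeet library 6 was the shallowest of all.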

How the results depend on the processing

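Ace, Enpep and Agt passed as higher in every alternative that tested them, and no result that passed changed direction. Of the 8 genes, 3 to 5 were higher, 5 with DESeq2, limma voom and the replicate block, and 0 lower in all. With the replicate block Mas1 had a log2 fold change of 2.70 (edgeR adjusted p = 0.0439), but same-numbered libraries correlated at most at 0.071 in their deviations, so the numbers were not taken as pairing, and no other call of the 8 genes changed, with 7 pathway genes higher and 9 proton pump subunits lower. With the series of library numbers as a covariate, 0 pathway genes were lower instead of 1, and of the proton pump subunits 1 was higher instead of 3 and 6 lower instead of 10. With endfeet libraries 4 to 6 only, 1 subunit was higher, and with thinned libraries 6 were lower. Leaving out single libraries gave 1 to 3 higher and 6 to 11 lower subunits and 6 to 8 higher and 0 to 1 lower pathway genes. Over all genes, 4485 were lower with limma voom instead of 2006, and leaving out single libraries gave 1874 to 3380 higher and 1171 to 2642 lower. The cause of these changes was not tested.

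Agt relative to astrocyte markers was 1.34 with endfeet libraries 4 to 6 only (exact p = 0.2) and 1.66 to 2.17 with single libraries left out. Comparing 3 with 3 libraries cannot give an exact p below 0.1, so no score could pass there. Score differences were then 7.18 for endothelial cells, 5.39 for pericytes, 4.23 for smooth muscle cells, 3.65 for fibroblasts, 2.24 for microglia, 3.34 for choroid plexus, 1.73 for ependymal cells, -1.62 for neurons and -1.01 for oligodendrocytes. With medians over genes, neurons (-0.85) and oligodendrocytes (-0.47) no longer passed. The astrocyte score differed by -0.68 and by -0.83 to -0.55 with single libraries left out, passing without endfeet library 5. Depth limits Ren1, Agtr1a and Agtr2, of which a level under 1.29 CPM could be missed in endfeet library 6.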
